A study of Mus musculus with 16 samples.

Results

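Gal, Tac1, Calca, Calcb, Npy and Penk encode neuropeptide precursors, Asic3 encodes an acid-sensing ion channel, and Avil encodes advillin, an actin-binding protein of sensory neurons. These 8 genes were followed in the calvaria, or skull vault, of mice that lacked Axin2, 1 copy of Runx2, or both. Gal, Tac1, Asic3 and Avil were chosen by their log2 values on these same arrays, which changed with genotype, so their values below are a description without a test. The other 4 were added as relatives. Platform annotation gave a probe to 6 of the 8 genes, 8 probes in all among 25697, and Calca and Penk are not analysed here. All 6 genes were among the 9918 tested.

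The calvaria came from male mice at postnatal day 7, and each array held the RNA of 1 mouse. A-KO:R-Het mice (Axin2-/-:Runx2+/-) lacked both copies of Axin2 and carried 1 functional copy of Runx2. A-KO mice (Axin2-/-) lacked Axin2 with both copies of Runx2 present, R-Het mice (Runx2+/-) lacked 1 copy of Runx2 with Axin2 present, and WT mice were wild type. The groups held 4, 3, 4 and 4 arrays in that order, after leaving out a further A-KO array, replicate 2, that the labels call damaged. Strain and the construction of both alleles are not given in the sources used here. The protein of Axin2 restrains Wnt signalling as part of a negative feedback loop, and osteoblasts need the transcription factor that Runx2 encodes; the level of Runx2 is not analysed here.

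Neuropeptides are cut from precursor proteins, stored in dense-core granules and released from nerve endings, where they act on receptors of the G protein-coupled family. Sensory fibres that carry substance P, the main product of Tac1, and calcitonin gene-related peptide, the product of Calca and Calcb, enter the periosteum, the dura and the sutures of the skull. Galanin, the product of Gal, is made by sensory and central neurons, neuropeptide Y by sympathetic neurons among others, and the transcripts of several peptide precursors are also made by cells that are not neurons.

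The arrays were comparable in level, with medians between 92.91 and 95.53 intensity units. The osteoblast transcripts Bglap (osteocalcin) and Col1a2 (type I collagen) averaged 14.49 and 14.47 on the log2 scale, among the brightest of all genes. The leading axis of variation between arrays, with 27% of the variance, followed skeletal muscle genes, which were highest in R-Het replicate 4, WT replicate 3 and WT replicate 1. On the next axis, with 16.2% of the variance, A-KO:R-Het replicate 1 lay at 11.9, beside the R-Het and WT arrays at 0.35 to 10.05, whereas the other arrays without Axin2 lay between -16.09 and -5.88. The changes of Gal, Tac1, Asic3 and Avil and the calls below are also given without some of these arrays. Both chips held every genotype. All values below are log2 intensities of the deposited values, changes are log2 differences ± standard error (SE) from the model over the 15 arrays, and the 3 comparisons with WT share the same 4 WT arrays.

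The promoters of the 4 genes taken for their change are shown because 1 of the altered alleles is that of a transcription factor. They are RefSeq sequences of mouse assembly GRCm38.p6, from 250 bases before to 50 bases after the annotated start, on the strand of the gene. Capitals mark the RUNX core (TGTGGT or TGCGGT) and the core of the cyclic AMP response element (CRE; TGACG), on either strand, so ACCGCA and CGTCA are the same motifs read from the other strand. The core of the Wnt effectors TCF and LEF, CTTTGA, was also searched on both strands. Gal lies at chr19:3414495-3414794 on the minus strand, Tac1 at chr6:7554811-7555110, Asic3 at chr5:24413201-24413500 and Avil at chr10:127000459-127000758, all 3 on the plus strand.
Gal: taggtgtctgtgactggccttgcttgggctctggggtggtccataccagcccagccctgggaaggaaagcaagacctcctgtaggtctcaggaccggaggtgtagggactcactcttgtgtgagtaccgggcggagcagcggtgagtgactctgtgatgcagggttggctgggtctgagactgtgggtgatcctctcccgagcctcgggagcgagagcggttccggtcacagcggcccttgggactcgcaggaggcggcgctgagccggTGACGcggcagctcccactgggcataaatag
Tac1: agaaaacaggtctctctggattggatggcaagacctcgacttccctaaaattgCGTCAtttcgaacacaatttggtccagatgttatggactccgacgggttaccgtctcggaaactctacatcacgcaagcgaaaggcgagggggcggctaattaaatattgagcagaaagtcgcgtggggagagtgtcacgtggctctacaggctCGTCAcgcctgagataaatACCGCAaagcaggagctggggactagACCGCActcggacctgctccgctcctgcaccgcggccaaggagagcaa
Asic3: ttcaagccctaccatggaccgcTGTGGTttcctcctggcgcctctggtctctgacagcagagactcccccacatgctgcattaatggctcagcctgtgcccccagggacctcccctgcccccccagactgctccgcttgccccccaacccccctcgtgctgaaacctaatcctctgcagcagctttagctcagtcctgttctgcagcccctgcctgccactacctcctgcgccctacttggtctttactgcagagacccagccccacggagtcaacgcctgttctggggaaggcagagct
Avil: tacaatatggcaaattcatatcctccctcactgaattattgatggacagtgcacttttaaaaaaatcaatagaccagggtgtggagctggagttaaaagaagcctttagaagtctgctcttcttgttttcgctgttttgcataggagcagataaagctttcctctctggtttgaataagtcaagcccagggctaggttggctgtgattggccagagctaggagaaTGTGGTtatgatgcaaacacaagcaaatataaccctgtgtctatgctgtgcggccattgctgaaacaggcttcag
The Gal window held 1 CRE core and no RUNX core. The Tac1 window held 2 RUNX cores, at bases -24 and 3 relative to the start, and 2 CRE cores, at -197 and -43. Asic3 and Avil each held 1 RUNX core, at -228 and -25. No TCF/LEF core was found in the 4 windows, and no match overlapped another. Among 32851 mouse promoters of the same length, 22.4% held a RUNX core, 20.8% a CRE core and 16.0% a TCF/LEF core, so a match describes the letters only and says nothing of binding.

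Gal was lower in every mutant genotype than in WT, and lowest where both defects were combined. Its probe lay above the array median on all 15 arrays. The 4 A-KO:R-Het arrays read 8.23, 8.90, 7.93 and 8.13, and the 3 A-KO arrays read 8.88, 9.21 and 9.05. The R-Het arrays read 8.45, 8.96, 8.94 and 8.31, and the WT arrays 9.37, 9.30, 9.71 and 9.46. No array of any mutant genotype reached the lowest WT array, whereas A-KO:R-Het replicate 2 lay inside the range of both single mutants. The means were 8.30 ± 0.42 in A-KO:R-Het (SD, n = 4), 9.05 ± 0.16 in A-KO (n = 3), 8.67 ± 0.33 in R-Het (n = 4) and 9.46 ± 0.18 in WT (n = 4).

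Against WT, the change of Gal was -1.16 ± 0.19 in A-KO:R-Het, a 2.24-fold lower level, -0.41 ± 0.20 in A-KO and -0.79 ± 0.19 in R-Het. A-KO:R-Het differed by -0.75 ± 0.20 from A-KO and by -0.37 ± 0.19 from R-Het. The changes of the 2 single defects summed to -1.21, close to the -1.16 measured where both were present. No SE was computed for the sum, and by chip the match was looser. On chip 1 the A-KO and R-Het changes were -0.45 and -0.63, which together exceeded the combined change. On chip 2 they were -0.45 and -0.96, which together fell short of it. The A-KO:R-Het change against WT was -0.77 on chip 1 and -1.56 on chip 2, with 2 arrays of either genotype on each chip, and -1.14 ± 0.21 without A-KO:R-Het replicate 1. The difference from A-KO was -0.32 on chip 1, which held 1 A-KO array, and -1.10 on chip 2. That from R-Het was -0.14 on chip 1 and -0.60 on chip 2, -0.57 ± 0.16 without A-KO:R-Het replicate 2 and -0.24 ± 0.19 without A-KO:R-Het replicate 3. In these bulk samples fewer cells that express a gene and less RNA per cell cannot be told apart.

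Tac1 moved opposite to Gal, with its highest level in A-KO:R-Het and its lowest in WT. Its probe lay above the array median on 13 of 15 arrays, and WT replicates 1 and 3 were below it. In A-KO:R-Het the arrays read 7.45, 7.65, 7.97 and 7.75, and the A-KO arrays 7.23, 6.93 and 7.34. The R-Het arrays read 7.52, 7.11, 7.38 and 7.37, and the WT arrays 6.53, 7.19, 6.50 and 7.04. Every A-KO:R-Het array lay above every A-KO and every WT array, while A-KO and R-Het overlapped with WT. The means were 7.71 ± 0.22 in A-KO:R-Het (SD, n = 4), 7.16 ± 0.21 in A-KO (n = 3), 7.34 ± 0.17 in R-Het (n = 4) and 6.82 ± 0.35 in WT (n = 4).

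Against WT, the change of Tac1 was 0.89 ± 0.16 in A-KO:R-Het, a 1.85-fold higher level, 0.35 ± 0.17 in A-KO and 0.53 ± 0.16 in R-Het. A-KO:R-Het stood 0.54 ± 0.17 above A-KO and 0.36 ± 0.16 above R-Het. As with Gal, the sum of the 2 single changes, 0.88, lay beside the 0.89 of the combined genotype over the 15 arrays. No SE was computed for the sum, and by chip the match was looser, as for Gal. On chip 1 the A-KO and R-Het changes were 0.36 and 0.45, which together exceeded the combined change. On chip 2 they were 0.36 and 0.60, which together fell short of it. The A-KO:R-Het change against WT was 0.69 on chip 1 and 1.09 on chip 2, and 0.98 ± 0.17 without A-KO:R-Het replicate 1. On chip 1 the differences of A-KO:R-Het from A-KO and from R-Het were 0.32 and 0.24, and with the damaged array kept the A-KO change against WT was 0.23 ± 0.18.

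The 2 lowest Tac1 arrays, WT replicates 1 and 3, were among the 3 arrays with the highest skeletal muscle signal. The highest of these 3, R-Het replicate 4, read 7.37 for Tac1, beside the R-Het mean of 7.34. Over the 15 arrays Tac1 had a Pearson r of -0.43 with the muscle mean, and of -0.37 within genotypes. Over 17 skeletal muscle genes the mean log2 intensity ranged between 7.46 and 10.63 in A-KO:R-Het, 8.42 and 10.50 in A-KO, 7.55 and 11.94 in R-Het, and 9.20 and 11.79 in WT. When those 3 arrays were dropped, a set chosen after seeing the data, the Tac1 change against WT was 0.59 ± 0.16 in A-KO:R-Het, 0.05 ± 0.17 in A-KO and 0.22 ± 0.17 in R-Het. The single changes of A-KO and R-Het together then fell short of the combined change, so the match of their sum did not hold without these arrays. With the muscle mean as a covariate over all 15 arrays, the changes against WT were 0.82 ± 0.16, 0.29 ± 0.17 and 0.45 ± 0.16 in the same order of genotypes. Of the dropped arrays 1 was R-Het, and the difference of A-KO:R-Het from R-Het was then 0.37 ± 0.14; none was A-KO:R-Het or A-KO, so the difference between those genotypes does not bear on these arrays. The part of muscle in the Tac1 values of WT was otherwise not tested.

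**Figure D1:**
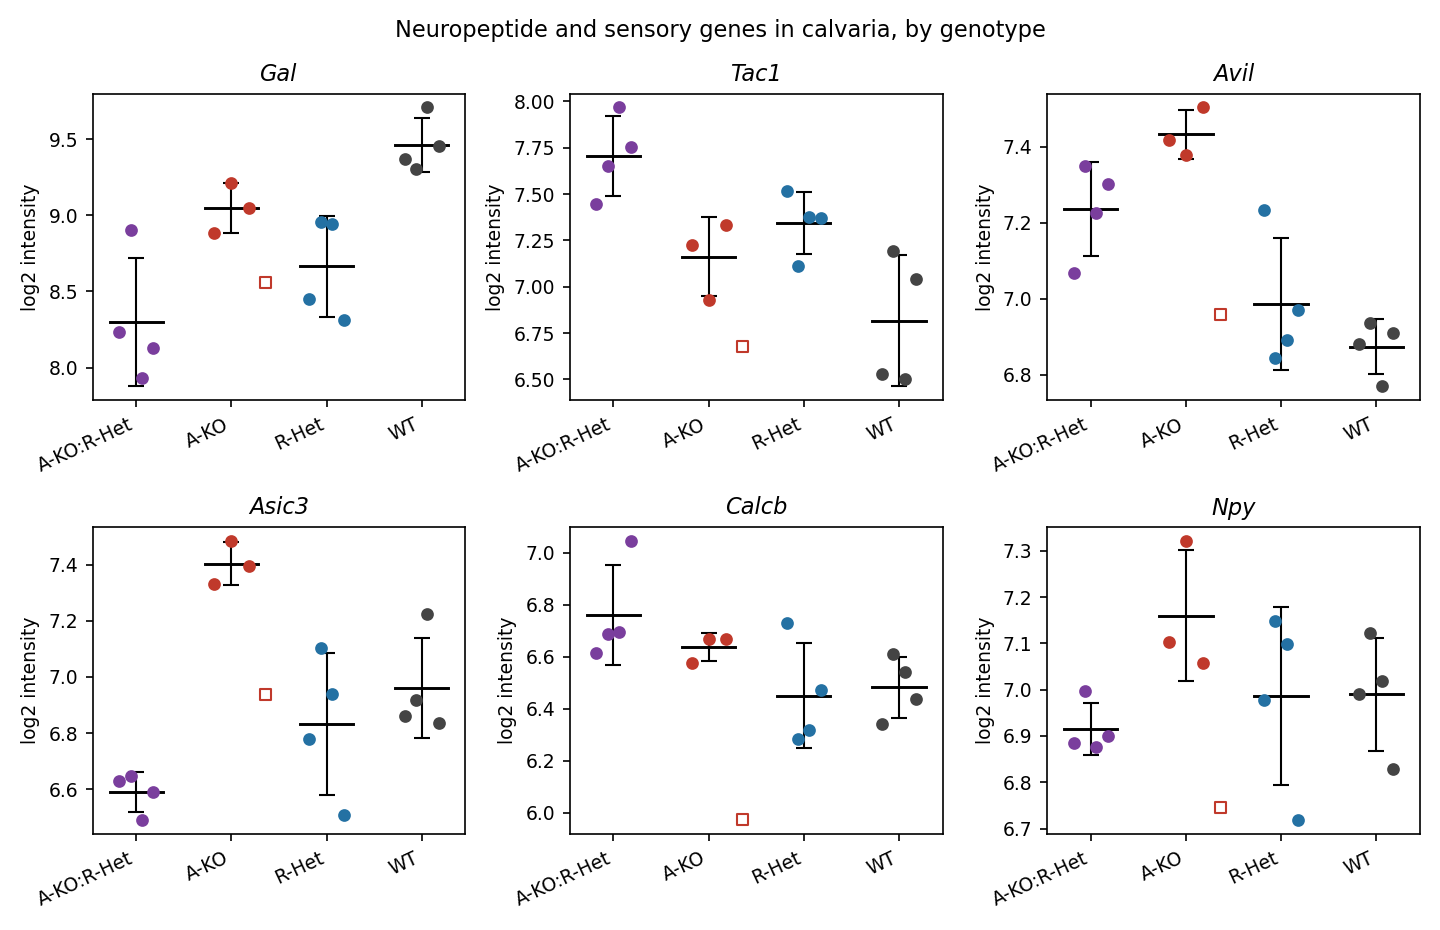
Log2 intensity of the 6 measured genes on each array, by genotype. Points are arrays, bars the mean and whiskers the SD of each genotype (n = 4, 3, 4 and 4, left to right); the open square is the A-KO array labelled damaged, which is not in the mean. Gal is highest in WT and Tac1 highest in A-KO:R-Het, Avil is highest in A-KO, and Asic3 is high in A-KO but low in A-KO:R-Het.

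Across the 15 arrays Tac1 and Gal had a Pearson r of -0.85, and of -0.46 once each genotype's mean was subtracted. The points share genotype as well as array and tissue piece, so this describes the arrays only.

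**Figure D2:**
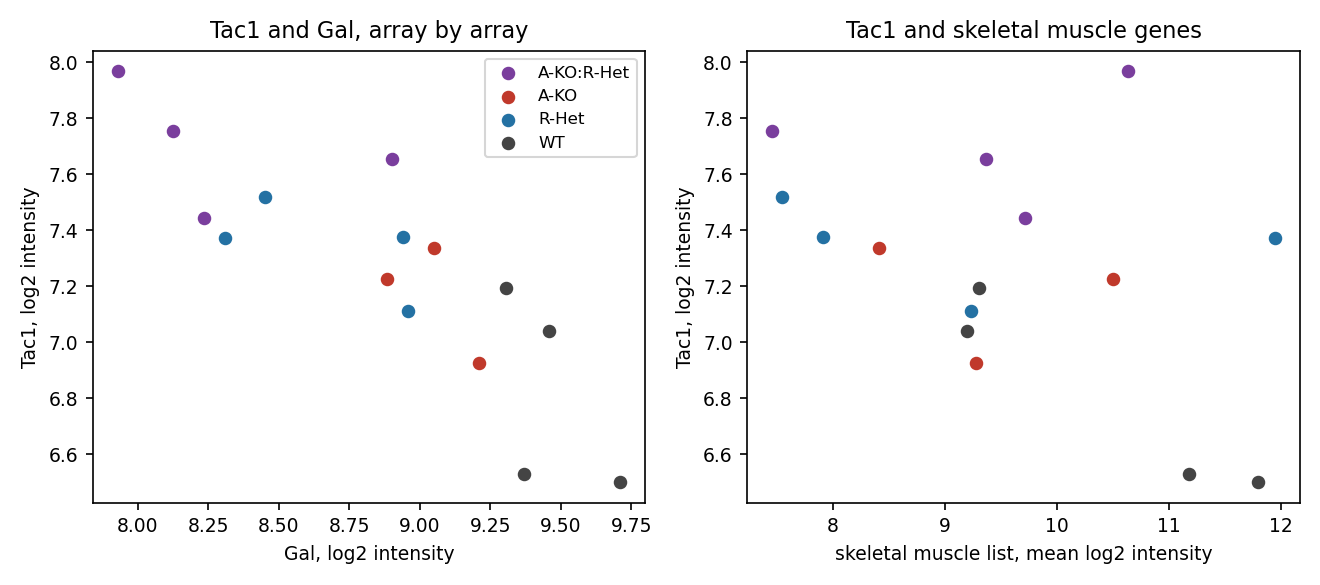
Tac1 log2 intensity of the 15 arrays against Gal log2 intensity (left) and against the mean log2 intensity of the skeletal muscle genes (right), coloured by genotype. The A-KO:R-Het arrays lie at high Tac1 and low Gal and the WT arrays at the other end. The 2 lowest Tac1 points, both WT, lie at muscle means of 11.18 and 11.79. The point with the highest muscle mean, an R-Het array at 11.94, lies at a Tac1 level of 7.37.

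Asic3, a proton-gated sodium channel subunit of sensory neurons, was high in A-KO and low in A-KO:R-Het. Its A-KO:R-Het arrays read 6.63, 6.65, 6.49 and 6.59, and the A-KO arrays 7.33, 7.48 and 7.40. The R-Het arrays read 6.78, 7.10, 6.94 and 6.51, and the WT arrays 6.86, 6.92, 7.22 and 6.84. All A-KO arrays lay above all others, and all A-KO:R-Het arrays lay below all WT arrays, while R-Het overlapped both A-KO:R-Het and WT. The means were 6.59 ± 0.07 in A-KO:R-Het (SD, n = 4), 7.40 ± 0.08 in A-KO (n = 3), 6.83 ± 0.25 in R-Het (n = 4) and 6.96 ± 0.18 in WT (n = 4).

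Against A-KO, Asic3 in A-KO:R-Het was 1.76-fold lower, a change of -0.81 ± 0.13. Against WT it changed by -0.37 ± 0.12 in A-KO:R-Het, by 0.44 ± 0.13 in A-KO and by -0.13 ± 0.12 in R-Het, and A-KO:R-Het differed by -0.24 ± 0.12 from R-Het. The 2 single changes summed to 0.32, opposite in sign to the -0.37 of the combined genotype. The R-Het value against WT had no stable sign, at 0.05 on chip 1, -0.31 on chip 2 and 0.06 ± 0.11 once the 3 muscle-rich arrays were dropped. It was -0.22 ± 0.11 without R-Het replicate 2, -0.04 ± 0.11 without WT replicate 3 and -0.02 ± 0.11 when R-Het replicate 4 was left out. The difference of A-KO:R-Het from R-Het was -0.15 ± 0.11 without R-Het replicate 2, and that from A-KO was -0.83 ± 0.14 without A-KO:R-Het replicate 1.

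Asic3 had 3 probes, and the probe described above was the brightest, above the array median on 13 of 15 arrays. The middle probe was above it on 4 arrays, 3 of them A-KO and 1 R-Het. It thus passed the filter mainly through the genotype where it was highest, and its differences are no separate support for those of the brightest probe. The dimmest probe was above the median on 0 arrays, so it did not pass the filter and its differences are given for completeness only. The middle probe differed by -0.33 ± 0.11 and the dimmest by -0.42 ± 0.12 between A-KO:R-Het and A-KO, without overlap between these 2 genotypes on either probe. Between A-KO and WT they differed by 0.16 ± 0.11 and 0.17 ± 0.12, the same sign as the brightest probe with a smaller size, and on the dimmest probe these 2 genotypes overlapped. The mean of the 2 probes that passed the filter gave -0.57 ± 0.08 for A-KO:R-Het against A-KO.

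**Figure D3:**
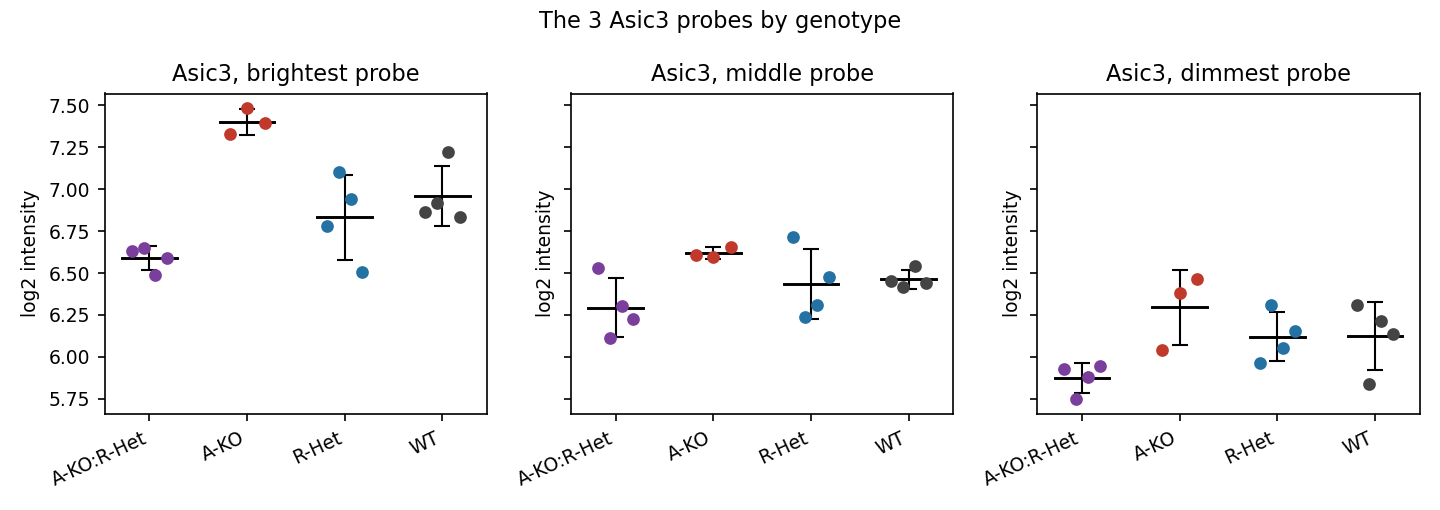
Log2 intensity of the 3 Asic3 probes on each array, by genotype, on 1 axis for all panels. Points are arrays, bars the mean and whiskers the SD of each genotype (n = 4, 3, 4 and 4, left to right); on each probe the A-KO arrays lie above the A-KO:R-Het arrays, by most on the brightest probe. Levels of different probes are not comparable.

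Avil was higher in both genotypes without Axin2 than in WT. The A-KO:R-Het arrays read 7.07, 7.35, 7.23 and 7.30, and the A-KO arrays 7.42, 7.38 and 7.50. The R-Het arrays read 7.23, 6.85, 6.89 and 6.97, and the WT arrays 6.88, 6.94, 6.77 and 6.91. Every array without Axin2 lay above every WT array, every A-KO array lay above every A-KO:R-Het array, and R-Het overlapped with WT. The means were 7.24 ± 0.12 in A-KO:R-Het (SD, n = 4), 7.43 ± 0.06 in A-KO (n = 3), 6.99 ± 0.17 in R-Het (n = 4) and 6.87 ± 0.07 in WT (n = 4).

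Avil changed against WT by 0.36 ± 0.09 in A-KO:R-Het, by 0.56 ± 0.10 in A-KO, a 1.47-fold higher level, and by 0.11 ± 0.09 in R-Het. A-KO:R-Het lay at -0.20 ± 0.10 from A-KO and 0.25 ± 0.09 above R-Het. The single changes summed to 0.67, above the 0.36 of the combined genotype. A-KO:R-Het replicate 1 was the lowest array of its group, and without it the A-KO:R-Het change against WT was 0.42 ± 0.09. The R-Het change rested on R-Het replicate 1, without which it was 0.03 ± 0.09. The A-KO change of 0.56, the larger part of the sum, does not use that array and alone exceeded 0.36. With the damaged A-KO array kept, the difference of A-KO:R-Het from A-KO was -0.08 ± 0.12. Without the 3 muscle-rich arrays the changes against WT were 0.31 ± 0.12 in A-KO:R-Het, 0.51 ± 0.13 in A-KO and 0.07 ± 0.13 in R-Het.

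Calcb, the precursor of the beta form of calcitonin gene-related peptide, was not taken for its change and was tested. Its probe lay above the array median on only 9 of 15 arrays, 4 A-KO:R-Het, 3 A-KO, 1 R-Het and 1 WT. Calcb thus passed the filter mainly through the genotypes where it was highest, and nothing is read from its lack of overlap. In A-KO:R-Het it read 6.62, 6.69, 6.70 and 7.05, and in A-KO 6.58, 6.67 and 6.67. The R-Het arrays read 6.73, 6.28, 6.32 and 6.47, and the WT arrays 6.34, 6.61, 6.54 and 6.44. The A-KO:R-Het arrays lay just above the WT arrays without overlap, by 0.28 ± 0.11, which did not pass the test (limma, Benjamini-Hochberg adjusted p = 0.26). In the other 4 comparisons the changes lay between -0.03 and 0.31, with limma adjusted p between 0.631 and 0.961, and the F test over the 4 genotypes gave an adjusted p of 0.336.

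Npy, the precursor of neuropeptide Y, stayed within a narrow range. The A-KO:R-Het arrays read 6.89, 6.998, 6.88 and 6.90, and the A-KO arrays 7.10, 7.32 and 7.06. The R-Het arrays read 6.98, 7.15, 7.10 and 6.72, and the WT arrays 6.99, 7.12, 7.02 and 6.83. A-KO:R-Het arrays lay below A-KO arrays without overlap, by -0.25 ± 0.11, which did not pass the test (limma adjusted p = 0.43). The other 4 changes lay between -0.08 and 0.17, with limma adjusted p between 0.541 and 0.997, and the F test gave an adjusted p of 0.547.

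The arrays of A-KO:R-Het and WT did not overlap for 5 of the 6 genes, Gal, Tac1, Asic3, Avil and Calcb, and for 8.56% of all 9918 genes. A-KO and WT did not overlap for 3, Gal, Asic3 and Avil, against 13.9% of all genes, and R-Het and WT for 1, Gal, against 5.04%. A-KO:R-Het and A-KO did not overlap for 4, Tac1, Asic3, Avil and Npy, against 11.4% of all genes, and A-KO:R-Het and R-Het for 0, against 2.77%. Since 4 of the 6 genes were taken for their change in these comparisons, nothing is read from these counts.

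**Figure D4:**
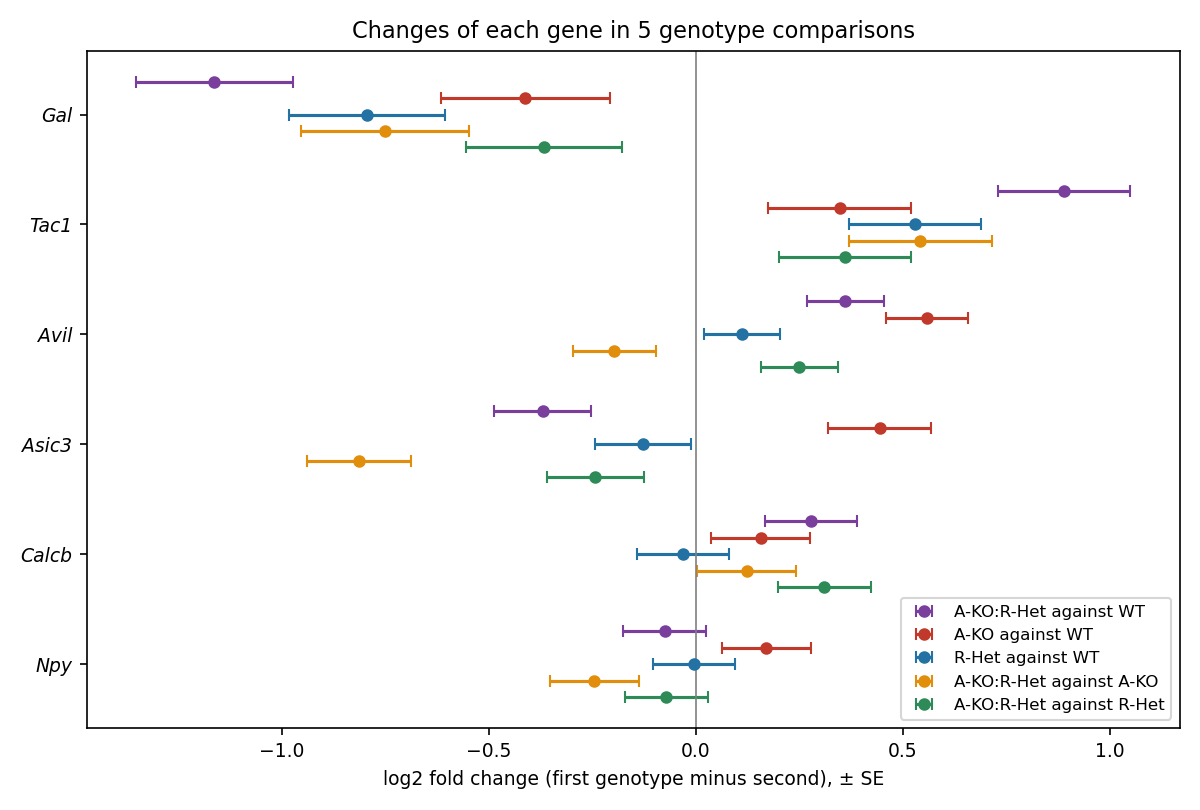
Log2 fold change of each gene in the 5 comparisons between genotypes, first genotype minus second, with whiskers of 1 SE. For Gal and Tac1 all 5 changes have 1 sign and the A-KO:R-Het change against WT is the largest, at -1.16 and 0.89, whereas for Asic3 A-KO against WT lies at 0.44 and A-KO:R-Het against A-KO at -0.81.

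Genes of peptide signalling, of neurons and nerve tissue, and of the Asic3 and Avil families were read from 11 lists. These named 197 genes, of which 172 had a probe and 73 were bright enough to be tested. The lists were chosen with earlier results of these data known, so the shares below are a description only. In A-KO:R-Het against WT, 2 of the 73 were higher and 3 lower at an adjusted p under 0.05, 6.85% of them, against 1.89% of all 9918 genes (0.897% higher and 0.988% lower). They were Ramp2 and Sema3a on the higher side and Ramp1, Dpp4 and Nmb on the lower. In A-KO against WT limma called 0 of the 73, against 0.313% of all genes, and in R-Het against WT 0, against 0.0504%. A-KO:R-Het differed from A-KO in 0 of the 73, against 0.555% of all genes, and from R-Het in 0, against 0%. The F test over the 4 genotypes called 3, Nmb, Dpp4 and Sema3a, 4.11% against 1.57% of all genes. The median change of the 73 genes in A-KO:R-Het against WT was 0.04, and that of all genes 0.01.

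Of the receptors of these peptides, 9 of 20 with a probe were tested. Ramp1, the subunit that turns the calcitonin receptor-like receptor into the receptor for calcitonin gene-related peptide, read 9.24, 9.40, 9.27 and 9.39 in A-KO:R-Het, against 9.92, 9.73, 10.26 and 9.81 in WT. Ramp2, which turns the same receptor into one for adrenomedullin, read 11.31, 11.22, 11.12 and 11.33 in A-KO:R-Het, against 10.93, 10.88, 10.90 and 10.76 in WT. Both were without overlap and ran in opposite directions, at -0.60 ± 0.14 for Ramp1 (limma adjusted p = 0.0328) and 0.38 ± 0.09 for Ramp2 (limma adjusted p = 0.0443).

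In A-KO, Ramp1 averaged 9.88 ± 0.18 and Ramp2 10.97 ± 0.14 (SD, n = 3), and in R-Het 9.67 ± 0.28 and 11.21 ± 0.16 (n = 4), against 9.93 ± 0.23 and 10.87 ± 0.07 in WT (n = 4). Ramp1 lost its call when any 1 of the 4 A-KO:R-Het arrays, WT replicate 1 or WT replicate 3 was left out, with limma adjusted p between 0.0571 and 0.102. The Ramp1 call was also lost with the muscle mean as a covariate (limma adjusted p = 0.0534). Without the 3 muscle-rich arrays the Ramp1 change was -0.45 (limma adjusted p = 0.275). Ramp2 lost it without any 1 of the 4 A-KO:R-Het arrays, A-KO replicate 1 or 4, or any 1 of the 4 WT arrays, with limma adjusted p between 0.0529 and 0.133. It also lost it with chip as a block (limma adjusted p = 0.0502) and with the damaged array kept (limma adjusted p = 0.228). Without the 3 muscle-rich arrays the Ramp2 change was 0.42 (limma adjusted p = 0.171). The receptor-like receptor itself, Calcrl, did not pass the filter on low values.

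The galanin receptor Galr2 averaged 7.95 ± 0.13 in A-KO:R-Het and 8.33 ± 0.31 in WT (SD, n = 4 each), a change of -0.38 ± 0.13 that did not pass the test (limma adjusted p = 0.186). Tacr2, a tachykinin receptor, and Npy1r, a neuropeptide Y receptor, changed by 0.04 ± 0.10 and -0.16 ± 0.09 (limma adjusted p = 0.919 and 0.488). Ogfr, the opioid growth factor receptor and after Ramp2 the brightest of the list, changed by 0.20 ± 0.10 (limma adjusted p = 0.37). Galr1, Galr3, Tacr1, Tacr3 and the opioid receptors Oprd1 and Oprk1 were among the 11 that did not pass the filter.

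Nmb, the precursor of neuromedin B, a bombesin-like peptide, passed the test, 1 of 8 tested among 35 other peptide and hormone precursors with a probe. It read 7.23, 7.34, 6.9997 and 7.16 in A-KO:R-Het, 7.54, 7.62 and 7.57 in A-KO, 7.17, 7.14, 7.30 and 7.42 in R-Het, and 7.93, 7.81, 7.47 and 7.80 in WT. The arrays with 1 copy of Runx2 were lower than those with 2 copies, without overlap. The A-KO:R-Het change against WT was -0.57 ± 0.10 (limma adjusted p = 0.0115), and the F test gave an adjusted p of 0.0232. The comparisons of Runx2 copy number alone did not pass, at -0.50 ± 0.10 in R-Het against WT (limma adjusted p = 0.107) and -0.39 ± 0.11 in A-KO:R-Het against A-KO (limma adjusted p = 0.161). Adm, Nts, Pdyn, Tac2 and Trh, precursors of adrenomedullin, neurotensin, dynorphins, neurokinin B and thyrotropin-releasing hormone, changed by -0.02 to 0.17 in A-KO:R-Het against WT and did not pass the test. Iapp, the amylin precursor, changed by 0.05 ± 0.13 (limma adjusted p = 0.912).

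Of the genes of peptide processing and dense-core granules, which are enzymes and granule proteins, 6 of 17 with a probe were tested and 0 passed. Furin, a proprotein convertase, averaged 11.82 ± 0.12 in A-KO:R-Het and 11.77 ± 0.10 in WT (SD, n = 4 each). Pam, which amidates the ends of many neuropeptides, averaged 8.82 ± 0.11 in A-KO:R-Het and 8.71 ± 0.14 in WT. Among enzymes that break peptides down outside the cell, 11 of 14 were tested and 1 passed. It was Dpp4, a surface dipeptidase, at 6.97, 6.74, 6.85 and 6.55 in A-KO:R-Het and 6.72, 6.57 and 6.65 in A-KO, against 7.13, 7.04, 7.62 and 7.61 in R-Het and 7.24, 7.36, 7.71 and 7.20 in WT. All arrays without Axin2 lay below all arrays with it. For this split too the share of all genes was not computed, and nothing is read from it.

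The A-KO:R-Het change of Dpp4 against WT was -0.60 ± 0.14 (limma adjusted p = 0.0435), and the F test gave an adjusted p of 0.024. The A-KO change, -0.73 ± 0.16, did not pass (limma adjusted p = 0.053), nor did A-KO:R-Het against R-Het, at -0.57 ± 0.14 (limma adjusted p = 0.658). The A-KO:R-Het call was lost without A-KO:R-Het replicate 2, 3 or 4, or without any 1 of the A-KO or WT arrays, with limma adjusted p between 0.0505 and 0.137, and with the damaged array kept (limma adjusted p = 0.0843). That call was also lost with the muscle mean as a covariate (limma adjusted p = 0.0664). Without the 3 muscle-rich arrays the Dpp4 change was -0.50 (limma adjusted p = 0.214). Mme, or neprilysin, which degrades substance P, changed by -0.10 ± 0.13.

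Sema3a, a secreted ligand that repels sensory axons, was 1 of 11 tested among 17 neurotrophic and guidance ligands with a probe. It read 8.68, 8.75, 8.86 and 8.61 in A-KO:R-Het and 8.46, 8.31 and 8.39 in A-KO, against 8.70, 8.77, 8.78 and 8.41 in R-Het and 8.01, 8.19, 8.04 and 8.33 in WT. A-KO:R-Het and R-Het lay above all WT arrays, whereas A-KO overlapped with WT. The A-KO:R-Het change against WT was 0.59 ± 0.10 (limma adjusted p = 0.00795), and the F test gave an adjusted p of 0.0193. R-Het against WT, at 0.53 ± 0.10, did not pass (limma adjusted p = 0.0859). Slit2, another repellent, changed by -0.56 ± 0.14 and did not pass (limma adjusted p = 0.054), and the growth factors Mdk and Ptn, the brightest of the list, changed by 0.09 ± 0.12 and 0.51 ± 0.17 without passing.

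The calls of Nmb and Sema3a held in all 15 fits that left out 1 array, with the highest limma adjusted p at 0.0481 and 0.0354. Both were lost once the 3 muscle-rich arrays were dropped, at limma adjusted p of 0.0604 and 0.0891, with changes of -0.63 and 0.47. That fit called 0 of the 73 genes.

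**Figure D5:**
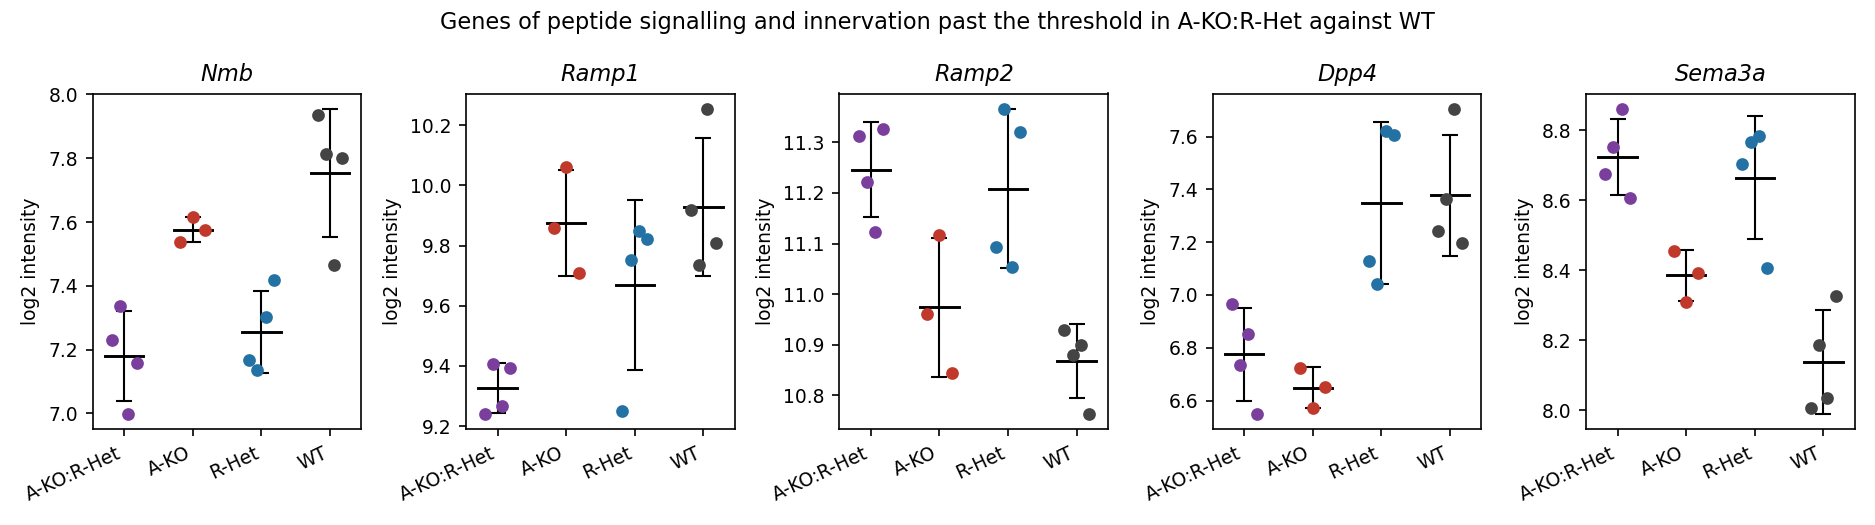
Log2 intensity of Nmb, Ramp1, Ramp2, Dpp4 and Sema3a on each array, by genotype. Points are arrays, bars the mean and whiskers the SD of each genotype (n = 4, 3, 4 and 4, left to right). Nmb is low in the genotypes with 1 copy of Runx2 and Dpp4 in those without Axin2, and Sema3a is highest in A-KO:R-Het and R-Het.

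Many transcripts that define neurons did not pass the filter, which asks for a level above the array median. Of 18 sensory neuron genes with a probe, 14 did not pass the filter, among them the sodium channel gene Scn10a, the receptor channel gene Trpv1 and the transcription factor genes Isl1 and Pou4f1. The 4 tested ones changed by a median of 0.18 in A-KO:R-Het against WT and 0 passed; Piezo2, a mechanically gated channel, changed by 0.31 ± 0.19 and the neurotrophin receptor Ntrk2 by 0.17 ± 0.14. Their summed intensity ranged between 603 and 785 in A-KO:R-Het, 544 and 607 in A-KO, 598 and 714 in R-Het, and 522 and 725 in WT. As background, the cell bodies of sensory neurons lie in ganglia outside the skull roof.

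Of 11 autonomic genes with a probe, 7 did not pass, Th and Dbh of noradrenaline synthesis among them. The 4 tested changed by a median of -0.29 in A-KO:R-Het against WT, with 0 calls. Gch1, the brightest, changed by -0.45 ± 0.18 in A-KO:R-Het (limma adjusted p = 0.258) and by -0.66 ± 0.19 in A-KO (limma adjusted p = 0.155). Ddc changed by -0.33 ± 0.23 in A-KO:R-Het against WT (limma adjusted p = 0.588). Of 16 pan-neuronal genes, 9 did not pass, such as Tubb3 and Snap25, and the 7 tested, with Gap43 of growing axons at 0.37 ± 0.15 (limma adjusted p = 0.245) and Map2 at 0.32 ± 0.11 (limma adjusted p = 0.165), gave 0 calls. Of the Schwann cell and myelin genes 8 of 10 were tested, with 0 calls. Pmp22, a myelin gene that other cells also use, changed by 0.39 ± 0.11 in A-KO:R-Het against WT (limma adjusted p = 0.101). The relatives of Asic3 among acid-sensing and epithelial sodium channels all had probes, and 0 of the 7 passed the filter. In the gelsolin and villin family of Avil, 5 of 7 were tested and 0 passed, with Capg at -0.35 ± 0.11 (limma adjusted p = 0.119) and Scin at -0.35 ± 0.13 (limma adjusted p = 0.238).

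Markers of other tissues in the calvaria moved with several of the genes over the 15 arrays. Gal had a Pearson r of -0.77 with the mean of 13 cartilage genes, -0.84 with 7 meninges genes and 0.74 with 12 osteoclast genes, and Tac1 had 0.88 with the meninges genes. With each genotype's mean subtracted these were -0.56, -0.45, -0.18 and 0.70. The 7 meninges genes were Crabp2, Aldh1a2, Foxc1, Foxd1, Igfbp2, Mgp and Alx4, while Ptgds, Slc6a13 and Lama1 of that list did not pass the filter. Their mean thus need not follow the meninges alone. Asic3 had -0.79 with the cartilage genes (-0.29 within genotypes), and Avil had -0.90 with 8 B cell genes (-0.57 within genotypes). With 10 tendon and fibrous tissue genes Asic3 had -0.67 (-0.81 within genotypes) and Gal -0.76 (-0.65 within genotypes). With the B cell genes Asic3 had -0.23, and 0.72 within genotypes.

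The summed intensity of the cartilage genes ranged between 19332 and 45005 in A-KO:R-Het, 8288 and 11185 in A-KO, 23407 and 27032 in R-Het, and 9506 and 23511 in WT. That of the meninges genes ranged between 14544 and 16691 in A-KO:R-Het, 10755 and 11916 in A-KO, 10718 and 13918 in R-Het, and 11012 and 12167 in WT. The B cell genes summed to between 995 and 1262 in A-KO:R-Het, 788 and 867 in A-KO, 1159 and 1903 in R-Het, and 1274 and 1793 in WT. The cartilage sum was thus lowest where Asic3 was highest, and the B cell sum lowest where Avil was highest. This was not particular to B cell genes. The mean log2 intensities of 6 erythroid and 7 mast cell genes were also lowest in A-KO, at 9.02 and 6.82, against 10.05 and 7.38 in WT. Avil had r of -0.72 with the erythroid, -0.56 with 12 neutrophil and -0.505 with the mast cell genes (-0.20, 0.13 and 0.08 within genotypes). Osteoclast genes summed to between 30712 and 34844 in A-KO:R-Het, 36387 and 41373 in A-KO, 32494 and 36229 in R-Het, and 33657 and 42296 in WT. The part of these tissues in the values of Gal, Tac1, Asic3 and Avil was not tested.

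The genes whose levels followed each of the 4 most closely over the 15 arrays were named by Pearson r, with r of the deviations from genotype means beside it. For Gal they were Ifitm1 at 0.93 (0.79 within genotypes), Dbndd2 at 0.93 (0.82), Hey1 at 0.90 (0.79), Rhbdl3 at 0.90 (0.82) and Glb1 at 0.89 (0.57), with Ndn at -0.89 and Prmt8 at -0.89 most opposed. For Tac1 they were Cdh3 at 0.91 (0.83), Ntn3 at 0.90 (0.67), Csrp2 at 0.89 (0.81), Epha7 at 0.88 (0.67) and Tgfbi at 0.87 (0.71), with Satb1 at -0.92 and Pkp2 at -0.89 most opposed. Hey1 encodes a transcription factor of the Notch pathway, Cdh3 P-cadherin and Epha7 an ephrin receptor.

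For Asic3 the closest were Loxl4 at 0.90 (0.81), Mcpt9 at 0.88 (0.58), Gm266 at 0.87 (0.50), Ssr3 at 0.86 (0.65) and Cd109 at 0.82 (0.53). The most opposed were Ucma, a cartilage matrix gene, at -0.89 (-0.60) and Cntn1 at -0.84 (-0.54). For Avil the closest were Bcat1 at 0.90 (0.77), Mtap at 0.90 (0.82), H1f2 at 0.90 (0.74), Sqle at 0.89 (0.70) and Tmem97 at 0.89 (0.73). The most opposed were Gstm1 at -0.93 (-0.74) and Pou2af1, a B cell coactivator, at -0.93 (-0.68). Among the 6 genes themselves, Asic3 and Npy had r of 0.79 (0.75 within genotypes), Asic3 and Gal 0.65 (0.73), and Avil and Calcb 0.68 (0.66). These are the extremes of 9918 genes over arrays that share genotype and tissue make-up.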

How the data were processed

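RNA from calvaria of 16 mice was measured on single-colour Illumina bead arrays, 200 ng of total RNA each, on 2 chips that the labels name. The values used were the authors' deposited probe intensities on a linear scale; their background correction and normalization are not given in the sources used here. A scanner table of 32 columns matched no sample label and was not used. Groups came from the genotype label. Replicate numbers follow record order, since no label carries any, and pair no mice.

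Values were taken as log2. A probe had to lie above its array's median on at least 3 of 15 arrays, which kept 14212 probes, 13381 of them named. Platform annotation paired 23978 probes with 1 symbol, 0 with several and 1719 with none, and 23962 matched the RefSeq gene table of GRCm38.p6. For each of 2505 genes with several kept probes the probe with the highest mean was used, giving 9918 genes. Genotype means were fitted as a linear model in limma 3.58.1 under R 4.3.3, p-values were adjusted over all genes by Benjamini-Hochberg at 0.05, and the fit was tested on simulated data. Each mouse gave 1 array, so the number of arrays sets the precision.

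The 8 genes and all gene lists were chosen with earlier results of these data known. Named besides the 8 were the 5 most and 2 least correlated genes of Gal, Tac1, Asic3 and Avil, and list members past the threshold or among the 2 brightest of a list; Galr2, Tacr2, Npy1r, Mme, Slit2, Adm, Nts, Pdyn, Tac2, Trh and the genes named as not tested were named after their values were seen, for their roles. Alternatives were the damaged array kept, chip as a block or alone, no filter, the mean of probes, quantile normalization, an added constant of 16, a muscle covariate, and each array left out. Dropping the 3 muscle-rich arrays was chosen after seeing the data. Of lists of other tissues, those for osteoblast, cartilage, meninges, osteoclast, tendon and fibrous tissue, skeletal muscle, B cell, erythroid, neutrophil and mast cell are reported.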

Additional observations from a re-analysis of the deposited data

Results flagged for a closer look

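The change of Asic3 with Axin2 loss differed in sign between mice with 1 and mice with 2 copies of Runx2. The difference between A-KO:R-Het and R-Het was -0.24, and that between A-KO and WT was 0.44, so the first minus the second was -0.69 on the log2 scale. Every A-KO array lay above the WT mean and every A-KO:R-Het array below the R-Het mean, which is what drew attention; the difference of differences was not tested, since Asic3 was taken for its change on these arrays. On the middle Asic3 probe, above the array median on 4 of 15 arrays, 3 of them A-KO, the same quantity was -0.30. That probe passed the filter mainly through A-KO, so its value is no separate support.

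The A-KO array labelled damaged, which entered only the alternative fits that kept it, read 6.96 for Avil, just above the highest WT array at 6.94 and below the other A-KO arrays, which lay between 7.38 and 7.50. On that array Gal read 8.56, Tac1 6.68 and Asic3 6.94. With it kept, the Avil difference of A-KO:R-Het from A-KO was -0.08 ± 0.12. Its mean correlation with the other arrays was 0.9185.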

How the results depend on the processing

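The counts of genes past the threshold over all 9918 genes were 187 in A-KO:R-Het against WT, 31 in A-KO against WT, 5 in R-Het against WT, 55 in A-KO:R-Het against A-KO, 0 in A-KO:R-Het against R-Het and 156 by the F test; the count of 0 had 641 genes at an unadjusted limma p under 0.05. Leaving out each array gave ranges of 67 to 222, 4 to 75, 0 to 15, 1 to 85, 0 to 1 and 48 to 270 in that order. With the damaged array kept, the first 4 counts and the F test count were 93, 0, 2, 23 and 42. On chip 1 alone they were 0, 0, 0, 0 and 0, and on chip 2 alone 1, 0, 0, 1 and 1, where fewer arrays entered. Without the 3 arrays highest in muscle genes, A-KO:R-Het against WT fell to 5, A-KO against WT to 6, R-Het against WT to 1 and the F test to 49. R-Het against WT gave 9 with chip as a block, 8 with 16 added before the log (A-KO against WT then 20) and 1 with the muscle covariate. Apart from the fits with fewer arrays, the cause was not tested. No paired analysis was possible because the labels carry no replicate numbers. Of 500 changes of Gal, Tac1, Asic3 and Avil over these settings, 199 could not change by construction; of the other 301, 290 moved by less than the SD between replicates and 11 by more, and the sign differed only for Asic3 in R-Het against WT. The counts of called genes among the 73 genes of the 11 lists ranged from 0 to 7 in A-KO:R-Het against WT. Ramp1, Ramp2 and Dpp4 lost their calls in 10, 16 and 15 of 25 settings, and Nmb and Sema3a in 3 each. The median of all genes moved by under 0.1 in each setting.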
